A study of Homo sapiens with 6 samples.

Results

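Keratins were read in LCCTam, a tamoxifen-resistant variant of the SUM44 breast cancer line, and in SUM44 itself. The set held 10 genes, KRT5, KRT7, KRT8, KRT13 to KRT19 without a gap, and every probe set whose single symbol in the platform annotation was one of them was taken. That gave 9 of the 11963 genes named on the array, read by 10 of its 22283 probe sets. KRT7 had 2 probe sets and the other 8 genes had 1 each, while KRT17 had none that met the rule and was not analysed here. The LCCTam samples came from passages 8, 9 and 10, grown with 500 nM 4-hydroxytamoxifen, the active form of the drug. The SUM44 samples came from passages 74, 75 and 76, grown in the same medium without it. Both lines stem from an invasive lobular carcinoma labelled positive for estrogen and progesterone receptors. Whether a difference came with the line or with the drug in its medium cannot be told apart, and the sources used here do not give whether LCCTam is 1 clone.

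Keratins are the intermediate filament proteins of epithelial cells. A type I chain pairs with a type II chain, and the pair assembles into filaments that tie the nucleus to desmosomes and hemidesmosomes. In the breast, luminal cells are known for KRT8, KRT18, KRT19 and KRT7, and the basal layer for KRT5, KRT14, KRT15 and KRT17. KRT13 belongs to the upper layers of stratified mucosa such as the oesophagus, and KRT16 to stressed or wounded epidermis. Pathologists use these patterns to assign breast tumours to luminal and basal classes.

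Each of the 6 samples was hybridized to its own array, and values are log2 expression from RMA, which summarises the probes of a probe set after background correction and normalization. Differences are LCCTam minus SUM44 on that log2 scale, fitted with limma over 22215 probe sets. A difference passed where its Benjamini-Hochberg adjusted p over all of them was under 0.05. Array medians lay between 5.92 and 5.97. LCCTam passage 10 stood apart, with a 75th percentile of 7.50, against 7.67 to 7.77 on the other 5 arrays. The control probe sets for the 3' and 5' ends of actin were 1.92 apart there and 0.90 to 1.15 apart elsewhere, and those of GAPDH 0.61 there and 0.09 to 0.31 elsewhere. Keratin differences are therefore given with and without it. Both lines had bright luminal markers, with EPCAM averaging 11.30 in LCCTam and 11.60 in SUM44, and GATA3 (its brightest probe set) 12.57 in LCCTam and 12.80 in SUM44. Of 18 luminal probe sets 5 fell, all of ESR1, and the brightest of these averaged 11.08 in LCCTam and 12.74 in SUM44. Of 20 fibroblast probe sets 3 fell, all of COL3A1, which lowered the mean over the list to between 4.55 and 4.65 in LCCTam, against 5.01 to 5.11 in SUM44. The brightest COL3A1 probe set differed by -4.42, and none of the other fibroblast probe sets passed. No leukocyte (5) or endothelial (6) probe set passed by limma's adjusted p, and 1 leukocyte and 0 endothelial probe sets had an unadjusted p under 0.05. Over all 22215 probe sets, 6.73% passed, 5.16% passed as lower in LCCTam, and 4853 had an unadjusted p under 0.05. The part of fibroblasts, leukocytes and endothelial cells in the keratin values was not tested.

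KRT13 rose in LCCTam and was the single keratin probe set of the 10 that passed. Its levels were 6.73, 6.40 and 6.85 in LCCTam passages 8, 9 and 10, against 4.55, 4.70 and 4.80 in SUM44 passages 74, 75 and 76. Every LCCTam sample lay above every SUM44 sample, with a gap between the lines wider than the range within either of them. The means were 6.66 ± 0.23 in LCCTam and 4.69 ± 0.13 in SUM44 (SD, n = 3 each). The difference was 1.97 (SE 0.13, 95% interval 1.66 to 2.29, limma adjusted p = 0.000943), or 3.93-fold higher. In bulk RNA, more cells with KRT13 and more KRT13 per cell cannot be told apart.

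KRT13 was dim in SUM44, where its mean stood at percentile 24.0 of all probe sets, and of middling brightness in LCCTam, at percentile 62.2. No detection calls were used, so the SUM44 level does not tell whether the gene was expressed there at all, and a difference from a dim level can be compressed. The value did not rest on the array that stood apart, since it was 1.88 without LCCTam passage 10 (adjusted p = 0.00219). Leaving out each of the 6 samples in turn gave 1.88 to 2.10, with adjusted p from 0.00219 to 0.0119. The KRT13 probe set carries the suffix _s_at, which marks probes that can read related transcripts, and there was no second KRT13 probe set to set beside it. KRT13 is known as estrogen-responsive in breast cancer cells, and in the same samples ESR1 fell by 1.65 on the log2 scale (its brightest probe set, adjusted p = 0.00172). Any link between the ESR1 and KRT13 changes was not tested.

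**Figure D1:**
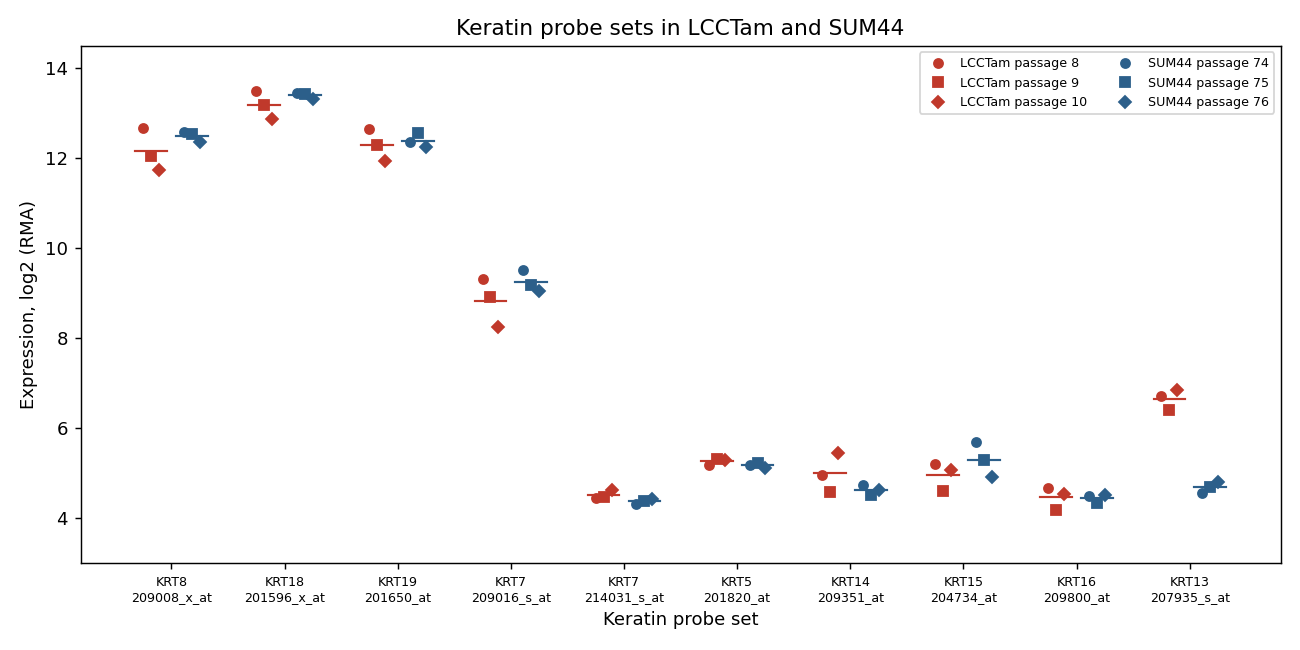
Expression (log2, RMA) of the 10 keratin probe sets, with LCCTam in red to the left of SUM44 in blue, 1 point per sample and a line at each mean of 3. KRT13 lies between 6.40 and 6.85 in LCCTam, above all SUM44 values, and the other 9 probe sets lie at similar levels in both lines, with LCCTam more spread out for KRT8, KRT7 and KRT14.

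Read against the array as a whole, 1 of 10 keratin probe sets passing was close to the background. Of the 22215 probe sets, 1494 passed, or 6.73%. These were 347 higher in LCCTam (1.56%) and 1147 lower (5.16%), and after quantile normalization 727 were higher and 967 lower. For 2 of the 10 keratin probe sets the lines were fully apart, KRT13 and the dimmer KRT7 probe set, against 28.7% of all probe sets. The submitters' own selection (2-fold or more, unadjusted p under 0.05, both means at or above the log2 of 10) took KRT13 alone among the keratins and 2.04% of all probe sets. With 1 probe set per gene, 1 of 9 keratins passed, against 7.92% of 11963 genes. The median keratin difference was -0.04, against 0.016 over all probe sets, and without LCCTam passage 10 both medians were 0.027. The overall count moved with single arrays, at 471 without LCCTam passage 8, 673 without passage 9, 2398 without passage 10 (10.8%), 357 without SUM44 passage 75 and 949 without passage 76, while 1 keratin probe set passed in each of these fits.

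KRT13 is next to other keratins on chromosome 17 in the RefSeq annotation of GRCh38.p14, between KRT36 and KRT15 and followed by KRT19 and KRT9. None of these neighbours passed. KRT36, a hair keratin, differed by 0.04 (adjusted p = 0.793). KRT15 differed by -0.34 (adjusted p = 0.428) and KRT19 by -0.09 (adjusted p = 0.814). KRT9, a keratin of palm and sole skin, differed by 0.34 (adjusted p = 0.213), and by 0.21 without LCCTam passage 10.

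**Figure D2:**
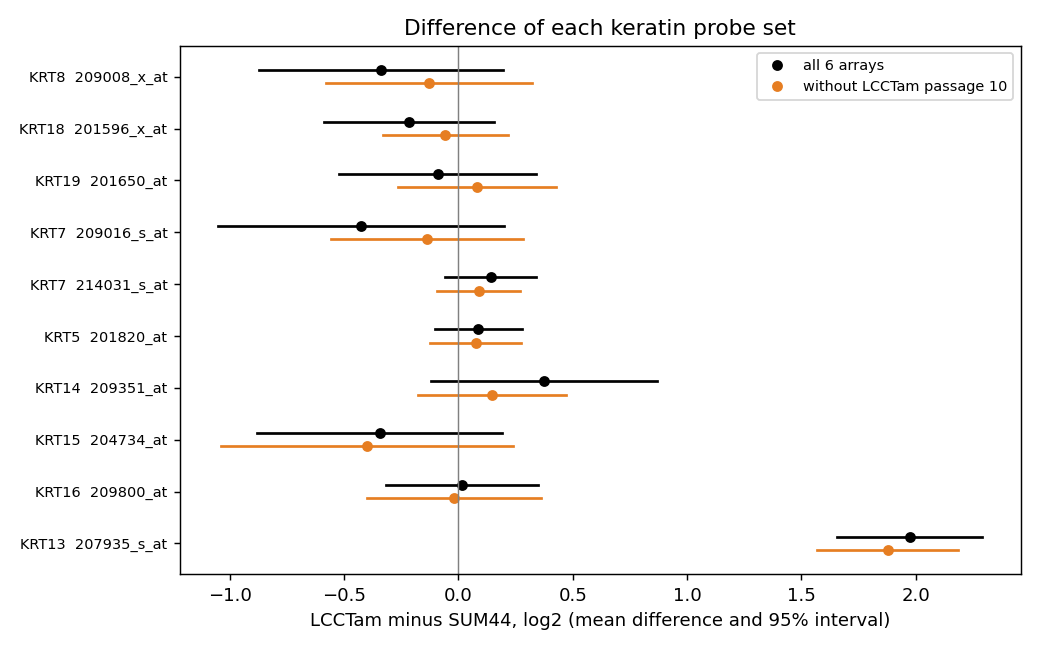
Mean difference, LCCTam minus SUM44 (log2), with its 95% interval for each keratin probe set, over all 6 arrays in black and without LCCTam passage 10 in orange. The KRT13 interval, 1.66 to 2.29, lies far from 0, the other 9 intervals include 0, and the KRT8, KRT18, KRT7 and KRT14 estimates lie nearer 0 without passage 10.

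The luminal keratins showed no difference that passed, and their LCCTam samples were more spread out than their SUM44 samples. KRT8, the type II chain of simple epithelia, was at 12.67, 12.06 and 11.74 in LCCTam passages 8, 9 and 10, against 12.59, 12.55 and 12.35 in SUM44 passages 74, 75 and 76. LCCTam passage 8 was the highest of the 6 samples and passages 9 and 10 were the lowest, so the lines overlapped. The means were 12.16 ± 0.47 in LCCTam and 12.50 ± 0.13 in SUM44 (SD, n = 3 each), a difference of -0.34 (95% interval -0.87 to 0.19, adjusted p = 0.434). KRT18, the type I partner of KRT8, was at 13.50, 13.19 and 12.87 in LCCTam, against 13.45, 13.43 and 13.32 in SUM44, in the same order of passages. Its samples fell in the same pattern, with LCCTam passage 8 at the top and passage 10 at the bottom. The KRT18 difference was -0.22 (95% interval -0.59 to 0.16, adjusted p = 0.474). Both probe sets carry the suffix _x_at, and both genes have many processed pseudogenes, so their probes can read other transcripts too.

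KRT19, a small type I keratin without the usual tail domain, was at 12.64, 12.29 and 11.95 in LCCTam passages 8, 9 and 10, against 12.35, 12.56 and 12.24 in SUM44 passages 74, 75 and 76. The LCCTam samples lay on both sides of the SUM44 samples. The difference was -0.09 (95% interval -0.52 to 0.34, adjusted p = 0.814). KRT7, a type II keratin of glandular ducts, was at 9.31, 8.92 and 8.25 on its brighter probe set in LCCTam, against 9.51, 9.19 and 9.06 in SUM44. LCCTam passage 10 was the lowest sample by a wide margin, and LCCTam passage 8 lay within the SUM44 range. The KRT7 difference was -0.43 (95% interval -1.05 to 0.20, adjusted p = 0.403). The dimmer KRT7 probe set was at 4.45, 4.47 and 4.62 in LCCTam, against 4.31, 4.39 and 4.42 in SUM44. Here every LCCTam sample was above every SUM44 sample by a small margin, and the difference of 0.14 did not pass (95% interval -0.06 to 0.34, adjusted p = 0.386). Without LCCTam passage 10 it was 0.09. The KRT7 probe sets thus had opposite signs, and neither passed.

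KRT8, KRT18, KRT19 and the brighter KRT7 probe set were lowest on LCCTam passage 10, the array whose control differences stood apart. All but KRT19 were also below every SUM44 sample on passage 9, whose control differences (1.08 for actin and 0.17 for GAPDH) were like those of the other arrays. On LCCTam passage 10, KRT8 lay 0.76 below its SUM44 mean (-0.76 on the log2 scale), KRT18 at -0.53, KRT19 at -0.44 and the brighter KRT7 probe set at -1.00. Over the brightest 10% of the array, 2222 probe sets to which KRT8, KRT18 and KRT19 belong, the median deviation on that array was -0.14 and the 10th percentile -0.58, so KRT18 and KRT19 lay within the range of most bright probe sets and KRT8 below it. On LCCTam passage 8 the same 4 keratin deviations were 0.18, 0.10, 0.26 and 0.06, and on passage 9 they were -0.43, -0.21, -0.09 and -0.33. All 4 were thus above the SUM44 mean in 1 LCCTam sample and below it in the other 2. Without passage 10 the differences were -0.13 for KRT8, -0.06 for KRT18, 0.08 for KRT19 and -0.14 for KRT7. In a fit with array weights they were 0.07, 0.04, 0.13 and 0.02, so the sign turned from the main fit for all 4, and none passed. These signs were those of LCCTam passage 8. The weights of single arrays are not given here, and how far the fit rested on that passage was not tested. The part of RNA quality in these values was not tested.

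**Figure D3:**
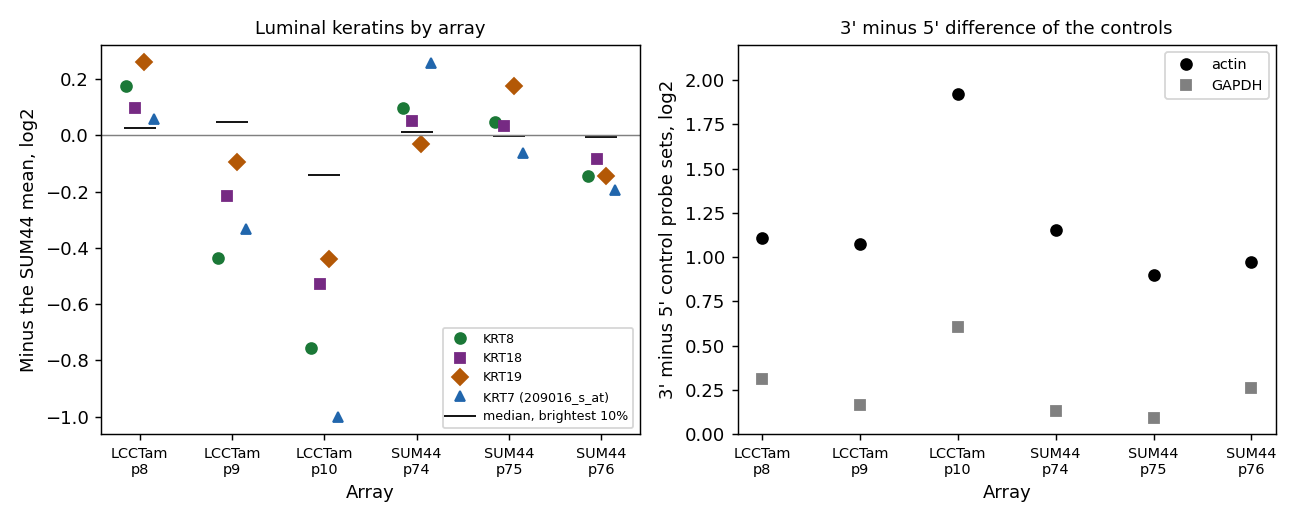
Left, the deviation (log2) of 4 luminal keratin probe sets from their SUM44 mean on each array, with a bar for the median over the brightest 10% of probe sets. Right, the 3' minus 5' difference (log2) of the actin and GAPDH controls. LCCTam passage 10 has the lowest keratin values, from -0.44 to -1.00, and the highest actin difference, 1.92.

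The balance between the partner chains was compared within arrays. KRT18 minus KRT8 was 0.82, 1.12 and 1.13 in LCCTam passages 8, 9 and 10, against 0.86, 0.89 and 0.96 in SUM44 passages 74, 75 and 76. LCCTam passage 8 was the lowest of the 6 samples and the other LCCTam samples were the highest. The means of this within-array difference were 1.03 ± 0.17 in LCCTam and 0.90 ± 0.06 in SUM44 (SD, n = 3 each). They differed by 0.12, which was within the spread (two-sided exact permutation test over the samples, p = 0.4, where 3 against 3 can give no less than 0.1).

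The basal and stress keratins were dim in both lines, and none passed. KRT5, the type II chain of basal cells, was at 5.18, 5.32 and 5.29 in LCCTam passages 8, 9 and 10, against 5.18, 5.23 and 5.12 in SUM44 passages 74, 75 and 76. The lines overlapped, and the difference was 0.09 (95% interval -0.10 to 0.28, adjusted p = 0.577), and 0.07 without LCCTam passage 10. KRT14, the type I partner of KRT5, was at 4.97, 4.59 and 5.45 in LCCTam, against 4.74, 4.52 and 4.62 in SUM44. LCCTam passage 10 was the highest sample, and passage 9 lay within the SUM44 range. The KRT14 difference was 0.37 (95% interval -0.12 to 0.87, adjusted p = 0.354), and it was 0.15 without LCCTam passage 10. KRT14 passed only in the fit with array weights, at 0.36 (adjusted p = 0.0406). In that fit 6828 of all 22215 probe sets passed, against 1494 in the main fit.

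KRT15, a type I keratin of basal and progenitor cells, was at 5.21, 4.60 and 5.07 in LCCTam, against 5.69, 5.30 and 4.93 in SUM44. It varied as much within each line as between them, and SUM44 passage 74 was the highest sample. The KRT15 difference was -0.34 (95% interval -0.88 to 0.19, adjusted p = 0.428). It was -0.40 without LCCTam passage 10, -0.17 without LCCTam passage 9, -0.15 without SUM44 passage 74 and -0.53 without SUM44 passage 76. KRT16 was at 4.68, 4.18 and 4.54 in LCCTam, against 4.50, 4.34 and 4.51 in SUM44. The lines overlapped, with a difference of 0.02 (95% interval -0.32 to 0.35, adjusted p = 0.965), and of -0.021 without LCCTam passage 10. The means of KRT5, KRT14, KRT15 and KRT16 stood between percentiles 18.3 and 36.2 of all probe sets in LCCTam and between 18.4 and 37.5 in SUM44.

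No keratin outside the set passed in the main fit. Of 39 further keratin genes, 23 were measured by 26 probe sets. By limma's adjusted p 0 rose and 0 fell, beside 6.73% of all probe sets that passed. Of the 26, 2 had an unadjusted p under 0.05, beside 4853 of all 22215 probe sets. With array weights 3 of the 26 passed, all higher, beside 6828 of all 22215 probe sets. The median difference of the 26 was 0.04 and their range -0.19 to 0.34. The largest was KRT9, at 6.14, 6.30 and 6.62 in LCCTam, against 6.08, 6.09 and 5.87 in SUM44. Its lines did not overlap, and it did not pass. Without LCCTam passage 10 it differed by 0.21 and KRT23 by -0.36, and neither passed. Of 24 probe sets of the 16 other intermediate filament genes, which include vimentin and the lamins, 0 rose and 0 fell, and 3 had an unadjusted p under 0.05. VIM, the mesenchymal filament protein vimentin, had the largest difference in the main fit. It was at 6.41, 6.06 and 5.80 in LCCTam, against 6.58, 6.59 and 6.48 in SUM44, a difference of -0.46 (adjusted p = 0.140), and of -0.31 without LCCTam passage 10. Without that passage a probe set of the lamin gene LMNA differed by 0.40 (adjusted p = 0.0670), more than VIM. Of the 24, 1 passed as higher after quantile normalization and 3 with array weights. Over all probe sets 1694 and 6828 passed in these fits.

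Among genes of the junctions that anchor or bind keratins, single members changed and most did not. The list gave 18 measured genes with 40 probe sets, and 1 of these rose, 5 fell and 34 missed the threshold, with a median difference of -0.04. The 6 of 40 that passed stand beside 6.73% of all probe sets. DSG2, a desmosomal cadherin, was at 6.39, 6.12 and 6.01 in LCCTam, against 7.60, 7.33 and 7.12 in SUM44 (difference -1.17, adjusted p = 0.00793). DSP, desmoplakin, which links keratin filaments to desmosomes, was at 8.97, 8.86 and 9.13 in LCCTam, against 10.12, 10.27 and 9.66 in SUM44 (difference -1.03, adjusted p = 0.0164). For both genes all LCCTam samples lay below all SUM44 samples. ITGB4, the integrin chain of hemidesmosomes, differed by -0.84 on 1 of 4 probe sets (adjusted p = 0.0252), and its other 3 did not pass. TRADD, a death receptor adaptor that is known to bind KRT18, rose by 0.58 on 1 of 3 probe sets (adjusted p = 0.0306). DST, the plakin dystonin, whose epithelial form links keratins to hemidesmosomes, fell on 2 of 8 probe sets. The brighter of these differed by -0.44 (adjusted p = 0.0435). The other differed by -0.35 (adjusted p = 0.0413) and was dim, with means of 4.14 in LCCTam and 4.49 in SUM44.

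These junction calls moved with single arrays, as did the count over all probe sets. With 1 sample left out, DSG2 differed by -1.29 to -1.05 and DSP by -1.21 to -0.90. Without SUM44 passage 75 no junction probe set passed, beside 357 of all 22215 probe sets, and DSG2 then had an adjusted p of 0.0521. Without LCCTam passage 10 there were 2 higher and 6 lower, beside 10.8% of all probe sets that passed. DSG2 passed in the other 5 fits that left out a sample, while DSP was lost without LCCTam passage 8 (adjusted p = 0.0744) or passage 9 (0.0620) as well as without SUM44 passage 75 (0.0746). ITGB4 was lost in the same 3 fits. Of the 6 fits that left out a sample, TRADD and both DST probe sets passed only in the fit without LCCTam passage 10, and the brighter DST probe set also missed the threshold after quantile normalization (adjusted p = 0.140), with arrays centred on their medians (0.0510) and with an intensity trend in the prior variance (0.0841).

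Cornified envelope genes, which mark differentiation in stratified epithelium, were read next. Of 19 probe sets of the 16 cornified envelope genes, 0 rose and 2 fell. Over all probe sets 1.56% passed as higher and 5.16% as lower. With array weights 2 of the 19 rose and 3 fell, in a fit where 6828 of all 22215 probe sets passed. S100A8 is a calcium-binding protein of inflamed epithelium and myeloid cells. On its brighter probe set it was at 6.92, 7.76 and 7.34 in LCCTam, against 8.91, 8.97 and 8.27 in SUM44 (difference -1.38, adjusted p = 0.0263). Its dimmer probe set differed by -0.11 (adjusted p = 0.515) and did not pass. S100A7, psoriasin, was at 4.43, 4.31 and 4.33 in LCCTam, against 5.31, 5.40 and 5.25 in SUM44 (difference -0.97, adjusted p = 0.00203). For S100A7 and the brighter S100A8 probe set the lines were fully apart, and S100A7 passed without any one sample (adjusted p up to 0.0208). S100A7 was dim, with means at percentile 15.8 of all probe sets in LCCTam and 37.9 in SUM44. The filter that kept probe sets at or above the median mean removed it. The brighter S100A8 probe set did not pass without LCCTam passage 8 (0.0879), SUM44 passage 74 (0.0699) or SUM44 passage 75 (0.124).

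Basal markers other than keratins gave 0 higher and 0 lower among 34 probe sets of 17 genes, beside 6.73% of all probe sets that passed. Of the 34, 3 had an unadjusted p under 0.05, beside 4853 of all 22215 probe sets. CDH3, P-cadherin, came nearest, at 5.75, 5.42 and 6.41 in LCCTam, against 8.25, 7.61 and 6.80 in SUM44. The lines did not overlap, though SUM44 passage 76 lay close to LCCTam passage 10. The CDH3 difference was -1.69 (adjusted p = 0.0518), just short of passing, and it passed without LCCTam passage 10 (-1.97, adjusted p = 0.0313), without SUM44 passage 76 (-2.07, adjusted p = 0.0259) and when only probe sets with 1 symbol were tested (adjusted p = 0.0488). It also passed with array weights (adjusted p = 0.00136), with an intensity trend (0.0322), after the intensity filter (0.0199) and at gene level (0.0454). With array weights 8 of the 34 passed, 6 higher and 2 lower, beside 6828 of all 22215 probe sets. The counts of 0 higher and 0 lower thus depend on these choices.

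**Figure D4:**
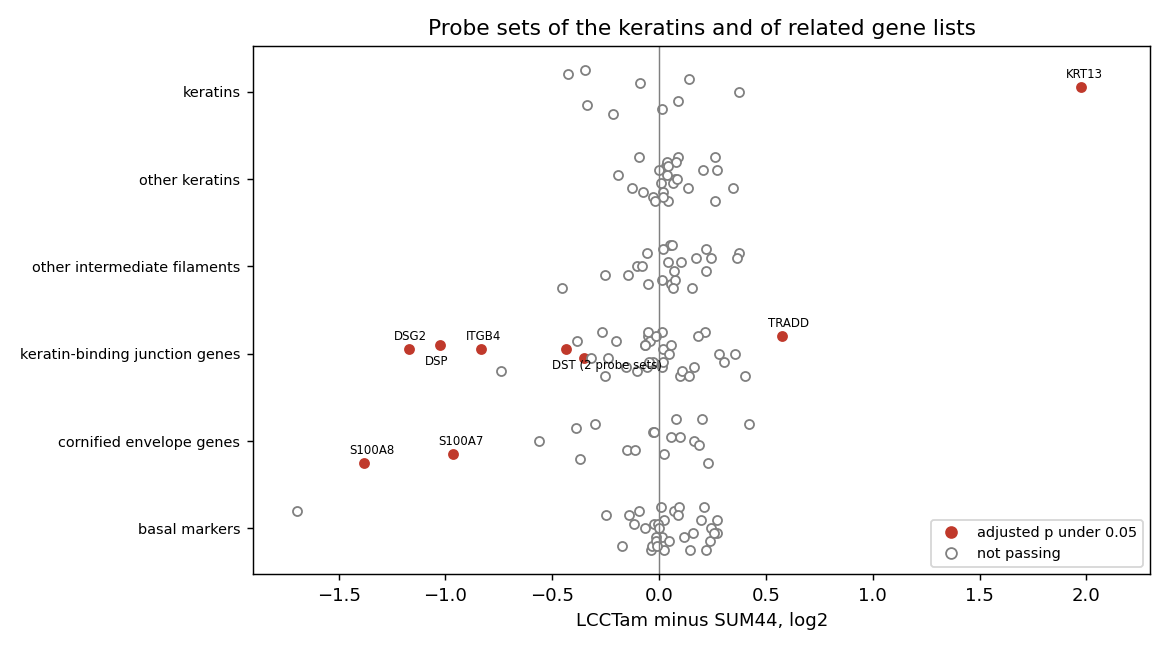
Difference, LCCTam minus SUM44 (log2), of each probe set of the keratins and of 5 related gene lists, filled where the adjusted p was under 0.05. KRT13, at 1.97, stands alone among the keratins, and the passing probe sets of the other lists are lower in LCCTam except for TRADD at 0.58.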

How the data were processed

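Total RNA of 3 LCCTam and 3 SUM44 samples was measured on 1 Affymetrix array each. The deposited values are log2 expression that the authors made with RMA, per the submitters' processing notes, as implemented in Bioconductor per their design text. Its version is not given in the sources used here, nor is the chip definition. The 68 control probe sets were left out. Of 20114 annotated probe sets 19071 had a single symbol, updated through Entrez identifiers with the RefSeq table of GRCh38.p14. The lines were compared with limma 3.58.1 in R 4.3.3 (lmFit, eBayes, no filter) over 22215 probe sets, with Benjamini-Hochberg adjustment at 0.05. The fit was tested on simulated data, in which 155 probe sets passed. It recovered 28% of changes of 0.5 on the log2 scale, 70% of changes of 1 and 98% of changes of 2. In the data 1494 passed, and the simulation shuffled the spreads among probe sets, so these rates need not hold for the real fit. Small differences that did not pass can still have been missed. Passages differ between the lines, so samples were not paired. Nothing says that passages were separate cultures, so p-values measure only a spread that may be technical, and the number of arrays limits the precision. Scan dates were not used, so array batch and line cannot be told apart.

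All members were named. From each related list, up to 4 passing genes with the largest differences were named, or the largest difference where none passed, and DST was added after its values were seen, as were KRT36 and the cell markers EPCAM, GATA3, ESR1 and COL3A1. Members and lists were chosen with earlier results of these data known. Alternatives changed normalization, scaling, weights, prior variance, intensity filter, cross-hybridizing probe sets, features tested, call rule, gene summary and single samples.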

Additional observations from a re-analysis of the deposited data

How the results depend on the processing

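KRT13 passed, with a difference of 1.88 to 2.10, in each of the 11 alternative fits that kept its probe set. It was removed by the filter that kept probe sets at or above the median mean and by leaving out _x_at and _s_at probe sets, and 0 keratin probe sets passed in those fits. With array weights 2 passed, KRT13 and KRT14, and with any 1 sample left out 1 passed. The count over all probe sets was 6828 with array weights (3310 higher, 3518 lower), 705 without _x_at and _s_at probe sets, 454 under the submitters' selection and 357 to 2398 with 1 sample left out. Probe sets passing over the 5 related lists numbered 8, 32 with array weights, 4 without _x_at and _s_at probe sets and 1 to 11 with 1 sample left out. At gene level 1 keratin passed throughout, and KRT18 minus KRT8 kept its sign, at 0.072 to 0.22 with 1 sample left out. The causes were not tested, except that the filters removed the KRT13 probe set itself. No paired analysis was possible because the lines share no passage number. Depth does not apply to arrays, and for the dim keratins the unknown background limits what can be read.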
